A study of Homo sapiens with 12 samples.

Results

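Tenascin-C, SPARC, the thrombospondins and their matrix partners were followed through resistant and sensitive melanoma cells as 10 genes of the 26499 in the count files: TNC, SPARC, SPP1, THBS1, THBS2, POSTN, FN1, FBN1, FBLN1 and TGFBI. They were picked out of the files by symbol, from a list made with earlier results of these data known. All 10 were present, and all 10 passed the filter on low counts that left 15506 genes. Poly(A)-selected RNA came from 4 groups of 3 libraries each. Resistant A375 and resistant SKMel28 were kept in 1 µmol/L vemurafenib, an inhibitor of mutant BRAF. Sensitive A375 and sensitive SKMel28 are their counterparts, for which the labels name no drug, so resistance and the presence of the drug cannot be told apart. A375 and SKMel28 are established human melanoma lines, and all were grown with 10% fetal bovine serum. Whether the resistant cells are clones or pools is not in the labels, and neither is whether each library had its own culture. The p-values therefore speak of the variation among these libraries, which may be technical.

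Matricellular proteins are secreted into the extracellular matrix but act mainly on cells, through integrins and other receptors, rather than as structural load bearers. Tenascin-C, SPARC, osteopontin, periostin and the thrombospondins belong to this class, while fibronectin and fibrillin-1 form fibres, fibulin-1 binds to them, and TGFBI links collagens to integrins. In melanoma, SPARC, tenascin-C and fibronectin are known for their association with invasion and with niches that protect tumour cells, and MITF-low melanoma cells often express much matrix.

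Each library held between 28496518 and 37721363 gene reads, so 1 CPM (the usual depth-scaled count, here on the library size adjusted by TMM scaling) stood for 29.8 to 39.7 reads. The 10 genes together took 0.231% ± 0.00504 of gene reads in resistant A375 and 0.366% ± 0.00793 in sensitive A375, and 0.981% ± 0.0734 in resistant SKMel28 and 0.931% ± 0.0561 in sensitive SKMel28 (SD, n = 3 each). Of 9 melanocyte and melanoma markers, 1 reached 1 CPM in resistant A375, which was MITF, against 4 in sensitive A375. All 9 did in both SKMel28 groups. Their summed level was 32.0 to 34.7 CPM in resistant A375, with TYR at 0, against 380 to 391 CPM in sensitive A375, with TYR and DCT at 0. It was 11075 to 11210 CPM in resistant SKMel28 and 7532 to 7980 CPM in sensitive SKMel28. In A375 most of the difference was SOX10, at 0.138 CPM in resistant and 325 CPM in sensitive cells. In SKMel28, 5 markers rose and 4 fell (edgeR adjusted p below 0.05), beside 34.2% and 35.8% of all genes tested. TYRP1 was at 2037 CPM in resistant and 218 CPM in sensitive cells, and PMEL at 6114 CPM in resistant and 4545 CPM in sensitive cells. Those that fell were S100B, S100A1, SOX10 and DCT, with S100B at 185 CPM in resistant and 465 CPM in sensitive cells. The part of these markers in the results was not tested. Fibroblast markers, 10 in number, summed to 18.7 to 22.1 CPM in resistant A375, 25.8 to 28.1 in sensitive A375, 17.8 to 21.6 in resistant SKMel28 and 29.4 to 30.2 in sensitive SKMel28. Most of this sum was PDGFRB in A375 (15.5 CPM in resistant and 17.1 CPM in sensitive cells) and LUM in SKMel28 (14.0 CPM in resistant and 22.7 CPM in sensitive cells). COL1A1 was at 1.05 CPM in resistant A375, 4.73 in sensitive A375, 3.63 in resistant SKMel28 and 2.08 in sensitive SKMel28. DCN, COL3A1, THY1 and DPT were under 0.5 CPM in every group, DPT was at 0 in both A375 groups and in sensitive SKMel28, and THY1 was at 0 in resistant SKMel28. The 6 leukocyte markers summed to 57.8 to 62.2 CPM in resistant A375, against 38.4 to 43.1 CPM in sensitive A375, and to 759 to 764 CPM in resistant SKMel28, against 207 to 219.9 CPM in sensitive SKMel28. Nearly all of it was CD68 in SKMel28, and CD3E was at 0 in every group. The 6 keratinocyte markers summed to 83.3 to 93.7 CPM in resistant A375, against 120.4 to 124 CPM in sensitive A375, and to 28.5 to 34.1 CPM in resistant SKMel28, against 66.4 to 70.4 CPM in sensitive SKMel28, with KRT1 at 0 in every group. Most of each sum was KRT10, at 88.7 CPM in resistant and 95.9 CPM in sensitive A375. In SKMel28 KRT10 was at 30.8 CPM in resistant and 68.2 CPM in sensitive cells. KRT14 was at 0.499 CPM in resistant A375, against 25.5 CPM in sensitive A375. The 6 endothelial markers summed to 8.77 to 9.51 CPM in resistant A375, against 10.3 to 13.2 CPM in sensitive A375, and to 2.14 to 2.64 CPM in resistant SKMel28, against 6.29 to 7.14 CPM in sensitive SKMel28. What part these lists have in the results was not tested. In bulk RNA, fewer cells that express a gene and less of its RNA per cell cannot be told apart.

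**Figure D1:**
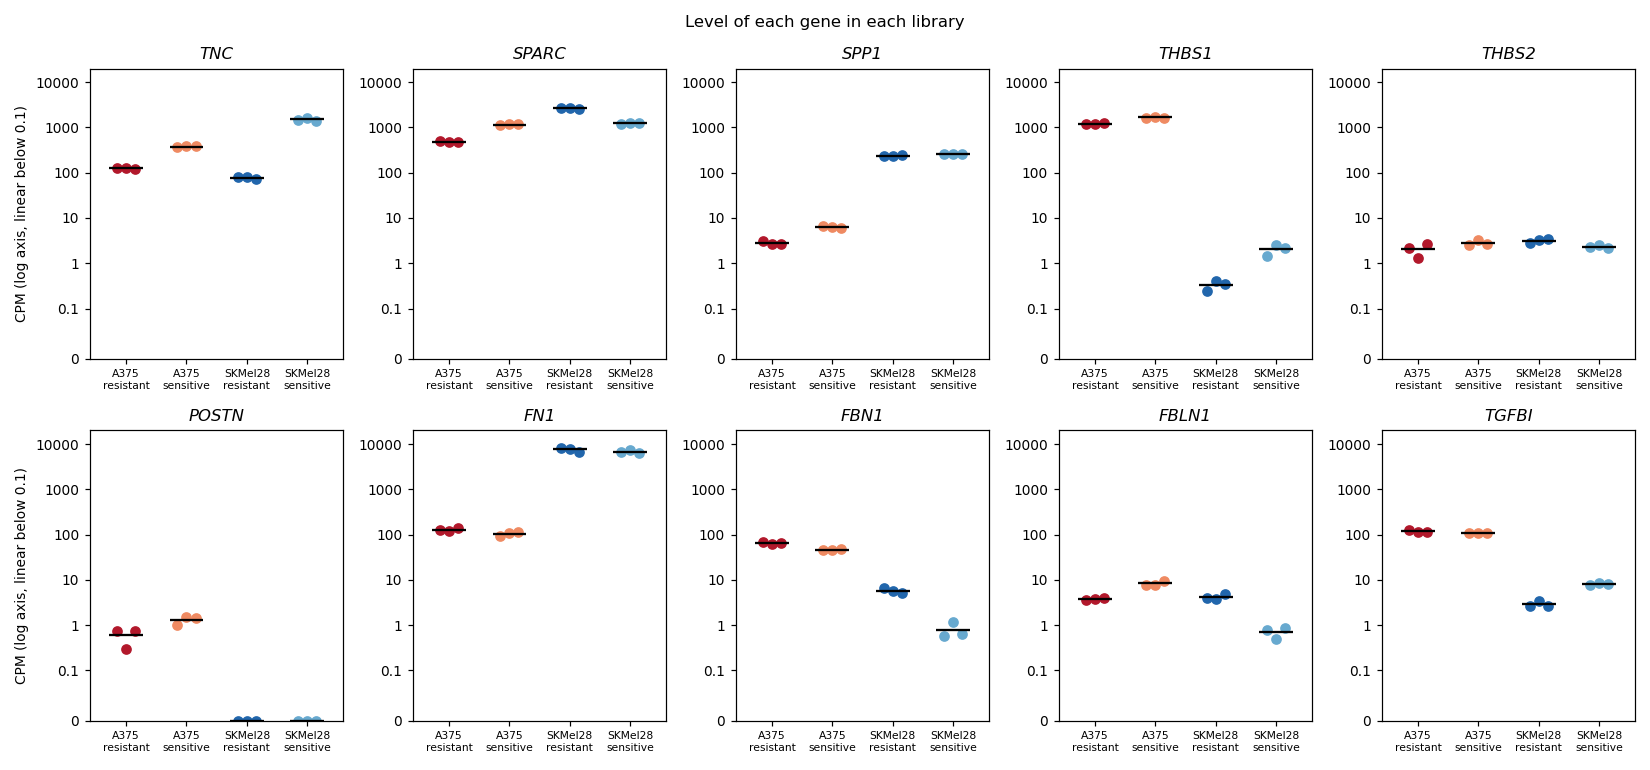
Level of each of the 10 genes in CPM on a log axis (linear below 0.1), with 1 point per library and a black bar at the mean of 3 libraries in each group. FN1, SPP1, THBS1, FBN1 and TGFBI separate mainly by line, and POSTN is at 0 in all SKMel28 libraries. TNC, SPARC and FBLN1 separate by resistance within each line, and SPARC in sensitive cells is close between the lines. SPP1, THBS1, FBN1 and TGFBI also separate by resistance within each line, by less than between the lines.

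Of the 10 genes, 3 rose and 6 fell in resistant A375 relative to sensitive A375 (edgeR adjusted p below 0.05, adjusted over all genes tested). Among all genes tested, 25.0% rose and 26.3% fell in that comparison. In SKMel28, 3 rose and 4 fell, against 34.2% and 35.8% of all genes tested. The median log2 fold change of the 10 was -0.79 in A375, beside 0 over all genes, and their median absolute log2 fold change was 0.81, beside 0.24 over all genes. In SKMel28 the 9 genes with reads had a median of 0.16, beside -0.01 over all genes. Their median absolute log2 fold change was 1.45, beside 0.46. Since the list was made with earlier results of these data known, these medians do not describe an unselected set.

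The 3 rises in A375 were of FN1, FBN1 and TGFBI, of which FBN1 alone passed when sensitive A375 replicate 1 or 2 was left out, and those in SKMel28 were of SPARC, FBN1 and FBLN1. The falls in A375 were of TNC, SPARC, SPP1, THBS1, POSTN and FBLN1, and those in SKMel28 of TNC, SPP1, THBS1 and TGFBI. FBN1 was thus higher in the resistant cells of both lines, while TNC, SPP1 and THBS1 were lower in both. SPARC and FBLN1 fell in A375 and rose in SKMel28, and TGFBI did the reverse.

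**Figure D2:**
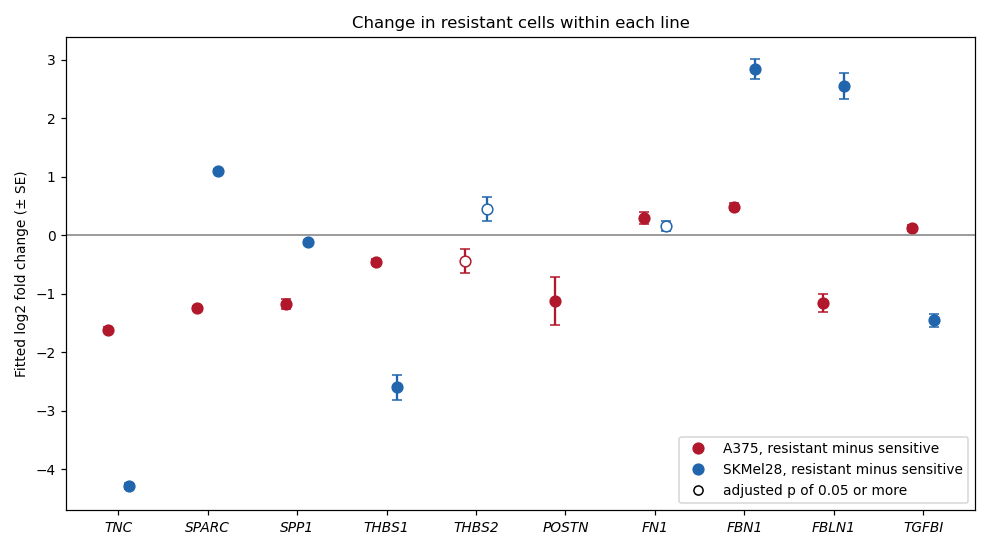
Fitted log2 fold change, resistant minus sensitive, of each gene in A375 (red) and SKMel28 (blue), with bars of 1 SE. Open circles mark an adjusted p of 0.05 or more. TNC fell in both lines and FBN1 rose in both, while SPARC and FBLN1 lie on opposite sides of 0. POSTN has no SKMel28 point because it had no read there.

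Promoter sequences are shown for the 4 genes on which the comparisons turn: TNC, which fell in both lines, FBN1, which rose in both, SPARC, which went opposite ways, and THBS1, which separated the lines most. RefSeq held a promoter for all 10 members on GRCh38.p14, and these run from 250 bases before the start site to 50 after it, 5′ to 3′ on the gene's strand. The windows are chr9:115118108-115118407 (minus strand) for TNC, chr15:48644921-48645220 (minus strand) for FBN1, chr5:151686866-151687165 (minus strand) for SPARC and chr15:39580829-39581128 (plus strand) for THBS1. Capitals mark matches on either strand to CATTCC, a core recognised by TEAD factors.
TNC: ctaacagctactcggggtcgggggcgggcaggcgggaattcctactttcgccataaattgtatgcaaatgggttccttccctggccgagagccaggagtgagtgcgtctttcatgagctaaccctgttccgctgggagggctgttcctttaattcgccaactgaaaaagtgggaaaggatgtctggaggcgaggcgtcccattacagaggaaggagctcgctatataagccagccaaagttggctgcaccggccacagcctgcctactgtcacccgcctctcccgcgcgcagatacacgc
FBN1: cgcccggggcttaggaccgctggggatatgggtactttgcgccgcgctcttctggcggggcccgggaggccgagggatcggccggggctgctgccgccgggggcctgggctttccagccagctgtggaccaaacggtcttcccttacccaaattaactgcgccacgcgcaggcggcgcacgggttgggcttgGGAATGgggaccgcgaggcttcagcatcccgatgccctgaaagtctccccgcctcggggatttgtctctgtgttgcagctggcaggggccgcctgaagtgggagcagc
SPARC: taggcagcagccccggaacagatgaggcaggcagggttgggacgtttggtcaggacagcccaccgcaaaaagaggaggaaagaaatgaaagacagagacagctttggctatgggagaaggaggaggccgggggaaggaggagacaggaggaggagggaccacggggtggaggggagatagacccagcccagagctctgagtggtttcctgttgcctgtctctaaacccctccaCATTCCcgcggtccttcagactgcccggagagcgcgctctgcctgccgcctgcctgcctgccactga
THBS1: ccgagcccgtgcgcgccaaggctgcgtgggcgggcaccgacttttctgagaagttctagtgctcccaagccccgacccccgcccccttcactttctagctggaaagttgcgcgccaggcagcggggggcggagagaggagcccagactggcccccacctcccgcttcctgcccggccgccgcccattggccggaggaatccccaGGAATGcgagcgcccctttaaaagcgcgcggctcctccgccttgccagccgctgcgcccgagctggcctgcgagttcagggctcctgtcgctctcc
Counted from the RefSeq start site, the CATTCC core began at position -17 in SPARC, on the gene's strand. In THBS1 (position -46) and FBN1 (position -58) it lay on the other strand and so reads GGAATG. It was not found in the TNC window, and 14.0% of 35116 RefSeq promoters of the same length held it. Among the other 6 members only the THBS2 window held it, at positions -103 and -91. TGANTCA (the AP-1 site), CATGTG (an E-box form recognised by MITF) and TATAAA (a form of the TATA box) were searched on both strands too. There was no overlap between matches in these genes, and no exact match to these motifs lay in the 4 windows shown. These motifs were in 7.71%, 11.1% and 11.5% of all such promoters. Other forms of the TATA box were not searched, and a close variant of TATAAA in the TNC window was not counted. Whether the 4 windows lack a TATA box was therefore not tested. TATAAA lay at -29 in both THBS2 and POSTN and also at -182 in POSTN, whose window held TGANTCA at -220.

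TNC encodes tenascin-C, a large multi-armed glycoprotein that loosens the adhesion of cells to fibronectin. The gene lies on the minus strand of chromosome 9 (115019578 to 115118257, GRCh38). It had 125, 124 and 123 CPM in resistant A375, against 362, 381 and 393 CPM in sensitive A375. In resistant SKMel28 it had 81.1, 78.8 and 73.3 CPM, against 1475, 1629 and 1417 CPM in sensitive SKMel28. The groups did not overlap in either line, and the sensitive SKMel28 libraries stood above all others. The fall was 3.05-fold in A375 (log2 fold change -1.61 ± 0.04 SE, edgeR adjusted p = 9.54e-28) and 19.4-fold in SKMel28 (-4.28 ± 0.05, adjusted p = 1.43e-40). The changes differed by 2.67 ± 0.06 on the log2 scale, A375 minus SKMel28 (adjusted p = 3.67e-30), so the fall in SKMel28 was the larger. From sensitive SKMel28 downward the order was sensitive A375, resistant A375 and resistant SKMel28, with each neighbour different from the next (edgeR adjusted p of at most 1.45e-16). The SKMel28 fall was the 381st largest change in size among the 15506 genes tested, and the A375 fall the 1128th.

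SPARC, or osteonectin, is a collagen- and calcium-binding glycoprotein that acts against cell adhesion. The gene lies on the minus strand of chromosome 5 (151661096 to 151687165). It had 508, 474 and 485 CPM in resistant A375, against 1127, 1166 and 1174 CPM in sensitive A375. In resistant SKMel28 it had 2626, 2697 and 2546 CPM, against 1186, 1226 and 1263 CPM in sensitive SKMel28. All resistant A375 libraries were thus below the sensitive ones, and all resistant SKMel28 libraries above theirs. SPARC fell 2.36-fold in A375 (-1.24 ± 0.03, edgeR adjusted p = 4.72e-31) and rose 2.14-fold in SKMel28 (1.10 ± 0.03, adjusted p = 8.36e-30), a difference of -2.34 ± 0.05 (adjusted p = 3.40e-36). Sensitive cells of both lines were close, at 1155 ± 25.1 CPM in A375 and 1225 ± 38.2 CPM in SKMel28 (SD, n = 3). Their difference of -0.08 (adjusted p = 0.0168) turned to 0.06 (adjusted p = 0.0481) when libraries were scaled by size alone. It missed the threshold without sensitive A375 replicate 1 (0.0914) or sensitive SKMel28 replicate 3 (0.0869), so no order between these 2 levels is given.

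THBS1 and THBS2 encode thrombospondin-1 and thrombospondin-2, which bind CD36 and CD47, inhibit angiogenesis and, for thrombospondin-1, activate latent TGF-beta. THBS1, on the plus strand of chromosome 15 (39581079 to 39599466), had 1191, 1211 and 1241 CPM in resistant A375, against 1639, 1709 and 1634 CPM in sensitive A375. In SKMel28 it was barely detected, with 8, 13 and 12 reads in the resistant libraries, against 43, 76 and 66 reads in the sensitive ones. The levels there were 0.335 ± 0.083 CPM in resistant and 2.05 ± 0.567 CPM in sensitive cells (SD, n = 3). THBS1 fell 1.37-fold in A375 (-0.45 ± 0.04, edgeR adjusted p = 4.22e-14) and 6.05-fold in SKMel28 (-2.60 ± 0.22, adjusted p = 5.20e-14), with no overlap of libraries in either line. Set against each other, A375 minus SKMel28, these changes were 2.15 ± 0.23 apart (adjusted p = 4.59e-11). Between lines the gap was far larger than either: 3586-fold higher in resistant A375 than in resistant SKMel28 (log2 11.81 ± 0.08) and 811-fold higher in sensitive A375 than in sensitive SKMel28 (9.66 ± 0.07).

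THBS2, on chromosome 6 (169215780 to 169254044, minus strand), was low in all 4 groups. It had 2.21, 1.31 and 2.69 CPM in resistant A375, against 2.55, 3.20 and 2.73 CPM in sensitive A375. In resistant SKMel28 it had 2.76, 3.31 and 3.38 CPM, against 2.27, 2.52 and 2.12 CPM in sensitive SKMel28. The A375 groups overlapped and the SKMel28 groups did not. Neither change passed the test, at -0.44 (95% interval -0.88 to -0.01, edgeR adjusted p = 0.0800) in A375 and 0.45 (0.02 to 0.88, adjusted p = 0.0551) in SKMel28. The intervals are not adjusted for the number of genes. The changes differed from each other by -0.90 ± 0.30 (adjusted p = 0.00875), and this call was lost without resistant A375 replicate 2 (-0.63, adjusted p = 0.0532). Leaving out 1 library brought the SKMel28 value past the threshold in 2 cases, 0.54 without resistant replicate 1 (0.0415) and 0.53 without sensitive replicate 2 (0.0494). It did so for the A375 value without resistant replicate 3 (-0.64, 0.0217). No neighbours in the order of its 4 levels differed (adjusted p from 0.204 to 0.525).

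SPP1, POSTN and TGFBI encode ligands of alpha-v integrins: osteopontin, which also binds CD44, periostin, and the TGF-beta-induced protein. SPP1 was far higher in SKMel28 than in A375. The gene, on chromosome 4 (87975650 to 87983426, plus strand), had 233, 237 and 244 CPM in resistant SKMel28, against 254, 265 and 259 CPM in sensitive SKMel28. In resistant A375 it had 3.13, 2.62 and 2.60 CPM, against 6.58, 6.31 and 5.89 CPM in sensitive A375. It was lower in the resistant libraries of both lines without overlap, but by different amounts. The fall was 2.25-fold in A375 (-1.17 ± 0.09, edgeR adjusted p = 3.15e-14) and 1.09-fold in SKMel28 (-0.12 ± 0.04, adjusted p = 0.00350), a difference of -1.05 ± 0.10 (adjusted p = 4.44e-12). Its level was 85.1-fold lower in resistant A375 than in resistant SKMel28 and 41.2-fold lower in sensitive A375 than in sensitive SKMel28.

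POSTN, on chromosome 13 (37562583 to 37598844, minus strand), was found in A375 alone, at 27, 10 and 24 reads in the resistant libraries, against 39, 49 and 43 reads in the sensitive ones. No read fell on it in the 6 SKMel28 libraries, where 3 reads over a group would be 0.0304 CPM in resistant and 0.0332 CPM in sensitive cells. Against that floor POSTN was at least 19.5-fold higher in resistant A375 than in resistant SKMel28, and at least 39.3-fold higher in sensitive A375 than in sensitive SKMel28. Within A375 the POSTN level was 0.593 ± 0.256 CPM in resistant and 1.30 ± 0.279 CPM in sensitive cells (SD, n = 3; -1.12 ± 0.41, edgeR adjusted p = 0.0200). It missed the threshold when any of 3 libraries was left out: at -0.77 without resistant replicate 2 (adjusted p = 0.153), at -1.01 without sensitive replicate 2 (0.0877) and at -1.05 without sensitive replicate 3 (0.0728). The 31 genes within 5 Mb of POSTN had a median log2 fold change of -0.54 in A375 (quartiles -0.77 and -0.37), and their part in its fall was not tested.

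TGFBI, on chromosome 5 (136028895 to 136063818, plus strand), had 126, 113 and 115 CPM in resistant A375, against 107, 108 and 111 CPM in sensitive A375. In resistant SKMel28 it had 2.70, 3.50 and 2.65 CPM, against 7.57, 8.57 and 7.98 CPM in sensitive SKMel28. The A375 groups came close to each other, while in SKMel28 every resistant library was far below the sensitive ones. TGFBI fell 2.73-fold in SKMel28 (-1.45 ± 0.11, edgeR adjusted p = 4.39e-16). It was 1.09-fold higher in resistant A375 (0.12 ± 0.05, adjusted p = 0.0364), but this missed the threshold at 0.10 without resistant replicate 1 (0.126) or sensitive replicate 1 (0.138), and at 0.11 without sensitive replicate 2 (0.108). The A375 change minus the SKMel28 change was 1.57 ± 0.12 (adjusted p = 1.21e-15). TGFBI was 40.1-fold higher in resistant A375 than in resistant SKMel28 and 13.5-fold higher in sensitive A375 than in sensitive SKMel28.

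FN1 encodes fibronectin, the fibre-forming glycoprotein on which integrins alpha-5 beta-1 and alpha-v beta-3 pull. The gene lies on the minus strand of chromosome 2 (215360440 to 215436172). It had 8038, 7981 and 6825 CPM in resistant SKMel28, against 6737, 7298 and 6350.1 CPM in sensitive SKMel28. In resistant A375 it had 126, 120.3 and 139.6 CPM, against 95.5, 107 and 112 CPM in sensitive A375. The SKMel28 groups overlapped and the A375 groups did not. The change in SKMel28 was 0.16 (95% interval -0.04 to 0.37, edgeR adjusted p = 0.128). In A375 FN1 rose 1.23-fold (0.30 ± 0.10, adjusted p = 0.0315), which missed the threshold at 0.27 without resistant replicate 3 (0.0729), at 0.23 without sensitive replicate 1 (0.114) and at 0.31 without sensitive replicate 2 (0.0646). The A375 change minus the SKMel28 change was 0.13 (interval -0.17 to 0.43, adjusted p = 0.411). Without resistant SKMel28 replicate 3, the lowest of its group, the SKMel28 change was 0.24 (adjusted p = 0.0307). Between lines the gap was wider: FN1 was 59.2-fold lower in resistant A375 than in resistant SKMel28 and 65.0-fold lower in sensitive A375 than in sensitive SKMel28.

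FBN1 encodes fibrillin-1, the main protein of microfibrils, which hold latent TGF-beta and scaffold elastin. The gene lies on the minus strand of chromosome 15 (48408306 to 48645849). It had 68.1, 61.7 and 66.9 CPM in resistant A375, against 45.5, 46.7 and 47.6 CPM in sensitive A375. In resistant SKMel28 it had 6.48, 5.67 and 5.13 CPM, against 0.567, 1.18 and 0.652 CPM in sensitive SKMel28. Every resistant library was above every sensitive library of its line. FBN1 rose 1.41-fold in A375 (0.49 ± 0.06, edgeR adjusted p = 1.46e-08) and 7.20-fold in SKMel28 (2.85 ± 0.17, adjusted p = 2.72e-19), and the changes differed by -2.35 ± 0.19 (adjusted p = 7.41e-15). The order was resistant A375, sensitive A375, resistant SKMel28 and sensitive SKMel28, with each neighbour different from the next.

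FBLN1 encodes fibulin-1, which binds fibronectin and the fibrillin network. The gene lies on the plus strand of chromosome 22 (45502238 to 45601135). It had 3.55, 3.75 and 3.996 CPM in resistant A375, against 7.84, 7.81 and 9.68 CPM in sensitive A375. In resistant SKMel28 it had 3.90, 3.75 and 4.81 CPM, against 0.767, 0.504 and 0.847 CPM in sensitive SKMel28. The groups were apart in both lines, in opposite senses. FBLN1 fell 2.24-fold in A375 (-1.16 ± 0.15, edgeR adjusted p = 9.33e-09) and rose 5.86-fold in SKMel28 (2.55 ± 0.22, adjusted p = 3.72e-14), a difference of -3.71 ± 0.26 (adjusted p = 2.09e-16). Resistant cells of the lines ended at 3.76 ± 0.223 CPM in A375 and 4.15 ± 0.573 CPM in SKMel28 (SD, n = 3), and these overlapping levels did not pass the test (-0.15, 95% interval -0.47 to 0.18, adjusted p = 0.394).

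The difference between lines in the resistance change passed for 8 of the 10 genes, against 63.8% of all genes tested. The exceptions were FN1, and POSTN, which had no read in SKMel28 and so no change there. Between lines, 9 of the 10 differed among sensitive cells (all but THBS2, with SPARC dependent on the scaling), beside 82.9% of all genes tested. Among resistant cells 9 differed (all but FBLN1), beside 85.3% of all genes tested, and THBS2 among them (-0.61, edgeR adjusted p = 0.00827) missed the threshold without resistant A375 replicate 2 (-0.34, 0.130). With shares that high over all genes, these counts say little about the members. The log2 differences ranged from -6.41 for SPP1 to 11.81 for THBS1 among resistant cells.

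Scaled to the length of the gene's exons, as CPM per kilobase, the most abundant of the 10 transcripts differed by group. In resistant A375 it was THBS1 at 156 ± 3.25 CPM per kb, followed by SPARC at 132 ± 4.74, and in sensitive A375 it was SPARC at 312 ± 6.78, followed by THBS1 at 214 ± 5.37 (SD, n = 3). In SKMel28 FN1 led, at 837 ± 75.3 CPM per kb in resistant and 747 ± 52.4 in sensitive cells. SPARC came next in both SKMel28 groups, at 709 ± 20.5 CPM per kb in resistant and 331 ± 10.3 in sensitive cells. The third place in SKMel28 was held by SPP1 in resistant cells, at 145 ± 3.26 CPM per kb, and by TNC in sensitive cells, at 167 ± 12.1, with SPP1 at 158 ± 3.15 overlapping it. TNC in resistant SKMel28 was at 8.62 ± 0.445 CPM per kb. In each line, then, the leading pair was the same in resistant and sensitive cells, THBS1 and SPARC in A375 and FN1 and SPARC in SKMel28, and in A375 their order differed.

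**Figure D3:**
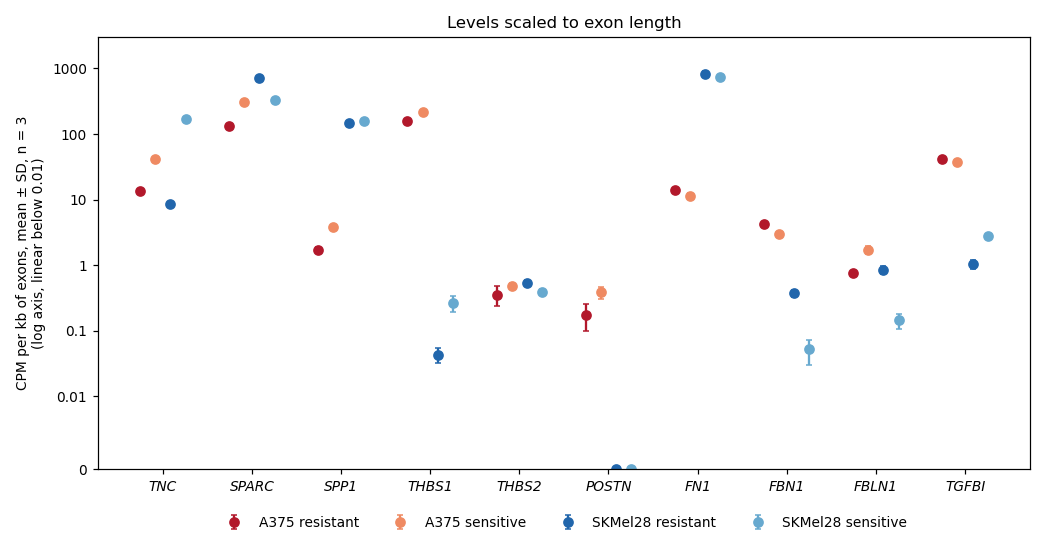
Mean level of each gene in each group as CPM per kilobase of exons on a log axis (linear below 0.01), with bars of 1 SD over 3 libraries. SPARC is above 100 CPM per kb in all 4 groups, FN1 leads in SKMel28 at 837 and 747 CPM per kb, and THBS1 leads in resistant A375 at 156 CPM per kb.

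The genes whose profiles over the 12 libraries came nearest were sought by the root mean square difference of centred log2 CPM among 10391 other genes. The 12 libraries fall into 4 groups, so the likeness is a description only. For SPARC they were ZNF608, a zinc finger gene, at 0.091 log2 units (r = 0.995), and CRISPLD1, a secreted protein gene, at 0.14 (r = 0.989). ZNF608 had 7.33 and 17.8 CPM in resistant and sensitive A375 and 41.3 and 17.8 CPM in resistant and sensitive SKMel28. For TGFBI they were SHROOM3 at 0.16 and ANKRD1 at 0.19, the first a regulator of cell shape and the second a target of YAP. For TNC they were EGR3, an immediate early transcription factor gene, at 0.44 and WIPF1, which binds an actin regulator, at 0.46. SPP1 was closest to the matrix metalloproteinase gene MMP17 (0.27) and the potassium channel subunit gene KCNAB2 (0.27), and FN1 to TPPP (0.29) and the receptor gene TNFRSF14 (0.32). FBN1 was closest to SYNPO, an actin-associated gene (0.39), and FST, which encodes the activin inhibitor follistatin (0.43). Among the 2 genes nearest to THBS1 was TGM2, the transglutaminase that cross-links fibronectin, at 0.64. TGM2 rose in resistant A375 (0.36, edgeR adjusted p = 1.03e-12), where THBS1 fell, and fell in resistant SKMel28 (-3.87), as THBS1 did. Among the members themselves THBS1 and TGFBI had r = 0.996 and SPP1 and FN1 r = 0.983 over the 12 libraries, and each of these genes differed widely in level between the lines.

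Within 5 Mb, the medians of the neighbouring genes' log2 fold changes ran from -0.02 to 0.08 in A375 for the members other than POSTN, and from -0.38 to 0.45 in SKMel28. The lowest SKMel28 median was around TNC (35 genes, -0.38, quartiles -1.05 and -0.07), beside -4.28 for TNC itself. Around FN1 the 46 neighbours had a median of 0.45, above the 0.16 of FN1.

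Other genes of the same families moved in both directions. Of 33 relatives of the members, 17 were tested, of which 9 rose and 5 fell in A375 (median log2 fold change 0.31, beside 0 over all genes) and 8 rose and 6 fell in SKMel28 (median 0.43, beside -0.01). For comparison, rises were 25.0% of all genes tested in A375 and 34.2% in SKMel28, while falls were 26.3% in A375 and 35.8% in SKMel28. The CCN genes CYR61 and CTGF encode matricellular proteins induced by YAP. CYR61 rose in both lines, to 241 ± 5.46 CPM in resistant A375 against 125 ± 1.77 CPM in sensitive A375 (0.94 ± 0.04, edgeR adjusted p = 2.97e-24), and to 169 ± 8.40 against 26.5 ± 0.875 CPM in SKMel28 (2.67 ± 0.05, adjusted p = 3.45e-39). CTGF rose in A375 (1.15 ± 0.05, adjusted p = 3.09e-24) and fell in SKMel28 (-0.43 ± 0.05, adjusted p = 5.78e-10). FSTL1, a secreted relative of SPARC, rose in both (0.86 and 1.89). SPOCK1, a proteoglycan with a SPARC-like domain, fell in A375 (-0.45) and rose in SKMel28 (2.90). HMCN1, a giant fibulin relative, fell in both lines (-4.73 and -0.59), and FBLN2, which encodes fibulin-2, fell in SKMel28 (-4.53). EFEMP1 fell in A375 (-0.86) and rose in SKMel28 (1.08).

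Receptors of the members were tested for 22 of 25 genes, of which 9 rose and 10 fell in A375 (median 0.01) and 8 rose and 11 fell in SKMel28 (median -0.11). Over all genes tested, the rises made up 25.0% in A375 and 34.2% in SKMel28, and the falls 26.3% in A375 and 35.8% in SKMel28. ITGB3, a partner of the alpha-v subunit, fell in both lines, to 7.79 ± 0.905 CPM in resistant A375 against 62.0 ± 4.34 CPM in sensitive A375 (-2.99 ± 0.07, edgeR adjusted p = 3.93e-24), and to 76.5 against 581 CPM in SKMel28 (-2.92 ± 0.05, adjusted p = 6.51e-28). ITGB5, another alpha-v partner, rose in A375 (0.12, adjusted p = 0.00352) and in SKMel28 (0.43, adjusted p = 2.88e-15). It lies outside the naming rule and was named after its values were seen, as was ITGAV, the alpha-v subunit itself, at -0.30 in A375 (adjusted p = 1.29e-07) and -0.02 in SKMel28 (adjusted p = 0.703). ITGB8 (-1.46) and the phosphatase receptor gene PTPRZ1 (-2.48) also fell in A375, while ANXA2 (0.32), the osteopontin and hyaluronan receptor gene CD44 (0.29) and EGFR (0.54) rose. In SKMel28 ITGA4, a subunit that binds fibronectin and osteopontin, fell to 0.214 ± 0.0386 CPM in resistant cells against 117 ± 4.05 CPM in sensitive cells (-9.08 ± 0.12, adjusted p = 4.66e-43). ITGA5, the fibronectin receptor subunit, fell to 5.27 ± 0.530 against 51.6 ± 3.45 CPM (-3.29 ± 0.07, adjusted p = 4.23e-36), as did the syndecan gene SDC4 (-2.09). The collagen receptor gene DDR2 (2.00), the thrombospondin receptor gene CD47 (0.99) and ITGB1 (0.71) rose in SKMel28.

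Partners of fibrillin-1 in microfibrils and elastic fibres were tested for 26 of 28 genes, of which 9 rose and 9 fell in A375 (median -0.04) and 11 rose and 8 fell in SKMel28 (median -0.13, or -0.12 with genes that had no read in 1 group set at their floor). Beside these stand rises of 25.0% of all genes in A375 and 34.2% in SKMel28, and falls of 26.3% in A375 and 35.8% in SKMel28. In A375 THSD4, which encodes a protein that binds fibrillin-1, rose (1.33 ± 0.05, edgeR adjusted p = 2.06e-25) along with the cross-linking enzyme genes LOXL1 (3.68) and LOXL2 (0.74). EMILIN1, an elastic fibre glycoprotein gene, fell to 2.40 ± 0.164 CPM in resistant A375 against 104 ± 3.76 CPM in sensitive A375 (-5.44 ± 0.09, adjusted p = 6.76e-40), and ADAMTSL4 (-0.71) and MFAP2 (-0.93) fell too. In SKMel28 FBN2, which encodes fibrillin-2, rose (2.66 ± 0.22, adjusted p = 6.50e-14) together with MFAP3 (0.52) and with MFAP1 (0.55), whose product is known as a splicing factor. EMILIN2 (-2.65), LTBP3 (-1.27) and LOX (-2.67) fell there.

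**Figure D4:**
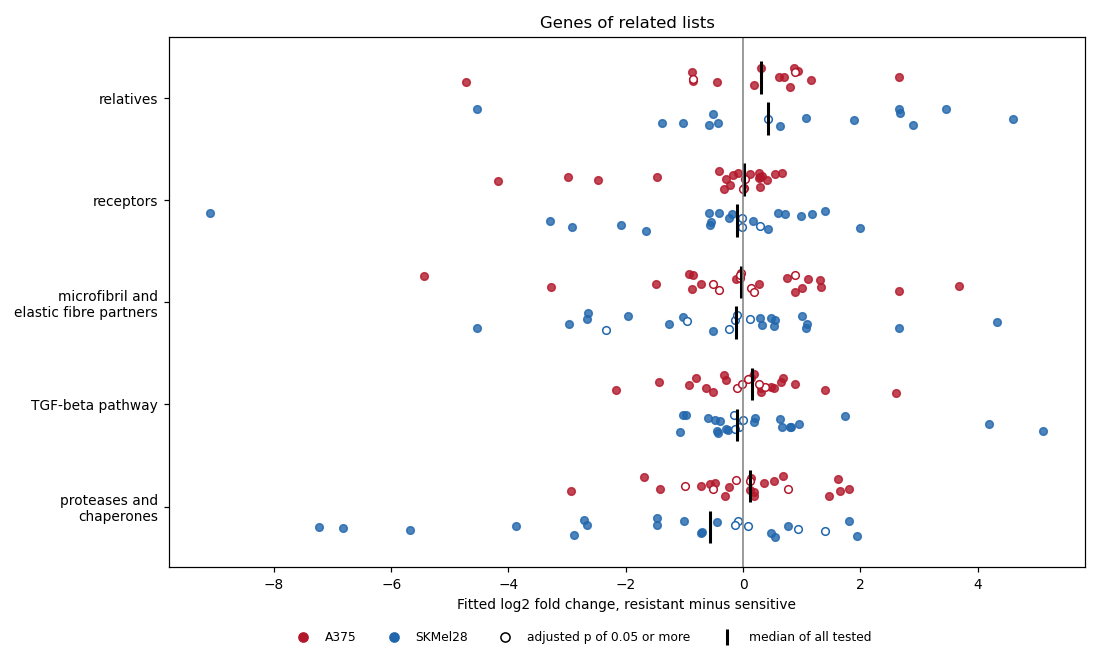
Fitted log2 fold change, resistant minus sensitive, of the tested genes of 5 related lists in A375 (red, upper row of each pair) and SKMel28 (blue, lower row), with open circles for an adjusted p of 0.05 or more and a black bar at the median of all tested genes of the list. Genes with no read in a group are left out as points, 3 times in A375 and 5 times in SKMel28. Genes lie on both sides of 0 in every list, and the lowest median is that of proteases and chaperones in SKMel28 at -0.57.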

How the data were processed

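Reads per gene symbol were deposited by the authors as raw counts, in 1 file per library, followed by lines for reads given to no gene. HISAT2, StringTie and GRCh38.p12 are named per the submitters' processing notes, while the deposited files' names point to STAR and unstranded counting, so the aligner is not settled. Without strand, reads of overlapping antisense genes cannot be told apart; SPARC and THBS1 each overlap 1 in GENCODE 29. Unassigned reads made up 15.1% to 19.5% of counted reads and were left out. Counts passing filterByExpr entered 1 edgeR fit of the 4 groups after TMM scaling (edgeR 4.0.16, robust quasi-likelihood, R 4.3.3), with Benjamini-Hochberg adjustment over 15506 genes, two-sided. Standard errors came from each estimate and its F value. Intervals are 95% and floors are 3 reads over a group; floors cover counting error only. Exon lengths and positions came from GENCODE 29, in which 23913 symbols matched. Members and lists were chosen with earlier results of these data known. Genes named besides the members were, per list, line and direction, up to 3 called genes of smallest adjusted p, and the 2 nearest profiles per member at 10 CPM or more; some of these are not reported here. Alternatives were other scalings (DESeq2 1.42.0 size factors, library size), other filters, the DESeq2 test, separate fits, a replicate block and leaving out each library. The tests were checked on simulated counts.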

Additional observations from a re-analysis of the deposited data

Results flagged for a closer look

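The resistance change of 8 members differed between the lines by the edgeR test of that difference (adjusted p below 0.05). So did that of 63.8% of all genes tested, so the count says little about the members. The difference is given as A375 minus SKMel28 on the log2 scale. It was 2.67 for TNC, 2.15 for THBS1 and 1.57 for TGFBI, which changed more towards lower levels in SKMel28. It was -2.34 for SPARC and -3.71 for FBLN1, which fell in A375 and rose in SKMel28. It was -2.35 for FBN1, which rose more in SKMel28, and -1.05 for SPP1, which fell more in A375. It was -0.90 for THBS2, whose change passed the test in neither line.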

How the results depend on the processing

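Of 649 values of members recomputed under other settings, 624 kept their side of the threshold, 16 no longer passed and 8 newly passed. Another 1 changed direction while passing in both settings. Changes of sign between values that both missed the threshold were counted among the 624. FBLN1 between resistant lines was such a case, at -0.15 in the report and from -0.21 to 0.07 over the settings. The turned value was SPARC between sensitive lines, -0.08 in the report and 0.06 with scaling by library size alone, which moved the median of all genes in that comparison to 0.18, against 0.03 with TMM (0.23 against 0.01 between resistant lines). With DESeq2 size factors or the DESeq2 test SPARC no longer passed there (-0.07 in each, adjusted p = 0.0652 and 0.0669). The number of members that rose in A375 was 3 and ranged from 1 to 3 when 1 library was left out, with 1 without sensitive A375 replicate 1 or 2. Among resistant cells THBS2 no longer passed between lines with scaling by library size (adjusted p = 0.0829) or without resistant A375 replicate 2 (adjusted p = 0.130). THBS2 passed in SKMel28 with no filter (adjusted p = 0.0430) or with that line fitted alone (adjusted p = 0.0284). Same-numbered resistant and sensitive libraries had correlations of deviations from -0.00240 to 0.0471, all below 0.1, and not every library was nearest to its own number, so the numbers were not taken as pairs. With replicate number as a block, 3 members rose and 6 fell in A375 as before, and FN1 passed in SKMel28 (0.16, adjusted p = 6.16e-06) and in the difference between lines (0.13, adjusted p = 0.0104). At these depths POSTN in A375 and THBS1 in SKMel28 rest on 8 to 76 reads per library. In the sensitive SKMel28 libraries FBN1 rests on 17, 35 and 20 reads and FBLN1 on 23, 15 and 26 reads.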

Other observations

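Genes of TGF-beta signalling, the pathway for which TGFBI is named and which fibrillin-1 and thrombospondin-1 touch, moved both ways. Of 24 tested of 25, 11 rose and 8 fell in A375 (median log2 fold change 0.15, beside 0 over all genes), and 10 rose and 10 fell in SKMel28 (median -0.11, beside -0.01). Among all genes tested, rises were 25.0% in A375 and 34.2% in SKMel28, and falls were 26.3% in A375 and 35.8% in SKMel28. The receptor gene TGFBR2 rose to 245 ± 2.93 CPM in resistant A375, against 92.9 ± 3.19 CPM in sensitive A375 (1.40 ± 0.04, edgeR adjusted p = 9.49e-29). SMAD3, a signal transducer of the pathway, rose in A375 (0.68). The inhibitory SMAD6 (-1.44), COL1A1 (-2.17) and PMEPA1 (-0.80) fell in A375. In SKMel28 TAGLN rose to 10.2 ± 0.175 CPM in resistant cells, against 0.288 ± 0.106 CPM in sensitive cells (5.12 ± 0.24, adjusted p = 7.70e-23), and SMAD2 rose (0.66), while TGFBR1 (-1.02), PMEPA1 (-0.98) and BHLHE40 (-0.48) fell.

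Proteases and chaperones that act on the members were tested for 24 of 26 genes, of which 11 rose and 8 fell in A375 (median 0.11) and 5 rose and 13 fell in SKMel28 (median -0.57), beside the same shares of all genes. The collagenase gene MMP1 rose to 41.3 ± 2.26 CPM in resistant A375, against 11.8 ± 0.995 CPM in sensitive A375 (1.80 ± 0.07, edgeR adjusted p = 2.05e-24). In SKMel28 it fell to 0.866 ± 0.308 CPM in resistant cells, against 99.0 ± 4.63 CPM in sensitive cells (-6.82 ± 0.11, adjusted p = 2.84e-40). CTSK, a cathepsin gene, rose in both lines (1.65 and 1.94). SERPINH1, the collagen chaperone gene, fell in A375 (-0.57) and rose in SKMel28 (0.76). CTSB rose in A375 (0.68), where MMP2 (-0.48) and ADAMTS1 (-0.71) fell. FAM20C, a kinase of secreted proteins such as osteopontin, rose in SKMel28 (1.80), FURIN fell there (-1.47), and PLAT fell to 225 ± 5.33 CPM in resistant cells, against 451 ± 9.01 CPM in sensitive cells.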
